A study of Homo sapiens with 12 samples.

Results

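The genes described here are the zinc finger genes of HL-60 cells that were read at low levels without drug. They were chosen by name and by level. The symbol had to be ZNF followed by a number and at most 1 letter, the mean over the 5 DMSO libraries had to be below 100 normalised counts, and at least 20 normalised counts had to be reached in at least 2 of the 11 libraries with values. Of the 60240 genes listed, 560 had such a symbol, 336 of these stood at a DMSO mean of 100 or more, 110 stayed under the floor of 20, and 114 were kept. The rule therefore used measured values. HL-60 is an established human promyelocytic leukaemia line. The decitabine groups received 100 nM decitabine at 0, 24 and 48 h and were collected at 6, 72 or 120 h, so that by this schedule the 6 h group had received only the first addition. The DMSO groups received the vehicle and were collected at the same times. All groups were wild-type cells of this 1 line, seeded at 100000 cells per mL and plated in duplicate, which gives 2 libraries a group, except that DMSO at 72 h has values for 1 library and the other is not analysed here. The labels do not say whether duplicate wells were separate cultures, and p-values speak only for the spread among these libraries, which may be technical.

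ZNF genes encode proteins with C2H2 zinc fingers, small folds around a zinc ion that read DNA in a row. Most human members also carry a KRAB domain, which recruits the corepressor TRIM28 and, through it, histone and DNA methylating enzymes, and many are known for silencing transposable elements. They lie in clusters that arose by repeated duplication, above all on chromosome 19. Decitabine, an analogue of deoxycytidine, enters new DNA and there holds DNA methyltransferases fast, so that methylation is lost as cells divide.

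Of the 114 genes, 106 were annotated as protein coding and 8 as pseudogenes. A total of 58 lay on chromosome 19, 9 on chromosome 16 and 6 on chromosome 7. Per kilobase of exon, their DMSO mean ran between 0.00808 normalised counts, for ZNF518B, and 46.3, for ZNF222, with a median of 9.13. Reads of these genes can be shared with near-identical copies. A median of 1.45% of the 50-base windows of a gene occurred in another gene's transcripts, and 11 genes had over 20%, among them ZNF98 with 41.0% and ZNF799 with 24.0%, so these values are uncertain. Just inside the DMSO ceiling were ZNF618 at 95.1, ZNF215 at 95.8 and ZNF799 at 98.3, and just outside it were ZNF672 at 103.2, ZNF416 at 103.4 and ZNF584 at 104.1. At the floor, the second-highest library stood at 22.1 for ZNF491, 22.3 for ZNF154 and 22.4 for ZNF446, which were kept, and at 19.4 for ZNF534 and 19.9 for ZNF709, which were not.

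Estimated depth was 14427335 to 32908453 counts per library, and 1 count was worth 0.407 to 0.961 normalised counts. The libraries of decitabine at 72 h lay farther apart than those of any other group, with a median absolute log2 difference of 0.59 over all genes tested and 0.53 over the low-expressed ZNF genes, against 0.19 to 0.26 and 0.30 to 0.39 in the other pairs. The transcript FP671120.7 took 3.89 to 10.9% of the values in the 120 h libraries of both treatments and 5.25% in decitabine 72 h replicate 1, but at most 0.794% in the other 6. The 7 promyelocyte markers summed to at least 109298 in every library, but their levels were uneven. At 120 h, MPO, myeloperoxidase, averaged 111710 with decitabine and 150544 with DMSO. By contrast, AZU1 averaged 474 with decitabine and 349 with DMSO, and ELANE 383 and 840.

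The floor shaped what could be seen. A set of 87 genes reached 20 in at least 2 DMSO libraries, so decitabine values played no part in their inclusion. The other 27 were included only because decitabine libraries helped to reach the floor, and 21 genes reached it in no DMSO library. For those 27 a higher level with decitabine was partly built into the choice, so their values are given as a description, with no p-value. The DMSO ceiling also acts on the 87, since a gene whose DMSO libraries happened to read low was more likely to be kept.

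Summed over the 27 genes, normalised counts were 274 and 278 with decitabine at 6 h against 261 and 237 with DMSO. At 72 h the sums were 1455 and 1619 with decitabine against 253 with DMSO, and at 120 h they were 1668 and 1706 with decitabine against 239 and 275 with DMSO. The decitabine libraries of 72 and 120 h thus stood apart from all others. The 87 genes summed to 5457 and 5118 with decitabine against 4399 with DMSO at 72 h, and to 5561 and 5595 against 4488 and 4697 at 120 h. At 6 h they summed to 4710 and 4638 with decitabine against 4573 and 4536 with DMSO. The 336 higher-expressed ZNF genes summed to 178985 and 175569 with decitabine and to 174011 and 175394 with DMSO at 120 h. In bulk RNA, a change in the cells that make up the culture and a change in RNA per cell cannot be told apart.

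**Figure D1:**
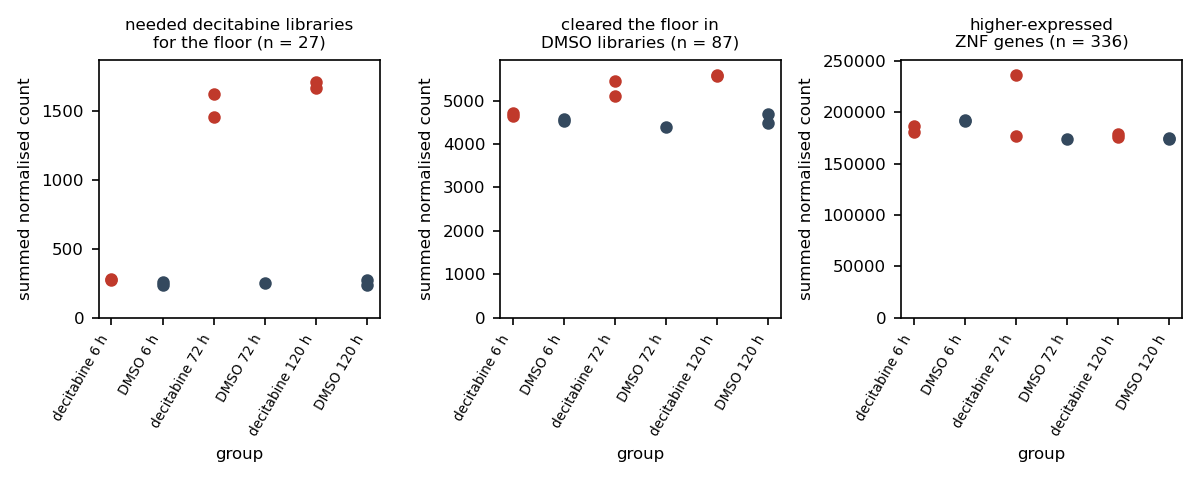
Summed normalised counts per library (points; decitabine red, DMSO dark) for the 27 genes that needed decitabine libraries to reach the floor, the 87 that reached it in DMSO libraries, and the 336 higher-expressed ZNF genes. In the first panel the 4 decitabine libraries of 72 and 120 h stand at 1455 to 1706 and the other 7 at 237 to 278; in the third, decitabine 72 h replicate 2 stands apart at 235970.

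At 6 h, limma called none of the 114 genes different between decitabine and DMSO at an adjusted p under 0.05, as it called 0 of all 16152 genes tested, and 11 of the 114 (9.65%) had an unadjusted p under 0.05, beside 541 (3.35%) of all genes. The 3 genes with the smallest p were ZNF483, ZNF726 and ZNF582. ZNF483 stood at 31.7 and 30.3 with decitabine and at 10.97 and 8.17 with DMSO. ZNF582, whose promoter is often methylated in tumours, stood at 89.4 and 98.2 with decitabine and at 49.8 and 40.4 with DMSO. ZNF726, a KRAB gene of chromosome 19, stood at 10.03 and 8.56 with decitabine and at 24.8 and 21.8 with DMSO. The groups did not overlap for these 3 genes, as for 38.9% of all genes at 6 h, and limma's adjusted p was 1 for each of them.

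At 72 h, 10 of the 114 genes were called higher with decitabine and 0 lower, beside 1.88% and 0.310% of all genes tested. Of these 10, 8 were among the 27 that needed decitabine libraries, and 2 of the 87 (2.3%) were called, ZNF257 and ZNF726. Over the 114, 31 genes (27.2%) had an unadjusted p under 0.05, beside 2919 (18.1%) of all genes. The 31 were 15 of the 27 and 16 of the 87 (18.4%). Lower with decitabine were 3 of the 31 and 1126 of the 2919. ZNF257, a KRAB gene of chromosome 19, stood at 193.7 and 193.6 with decitabine and at 46.6 with DMSO, a log2 fold change of 2.03 ± 0.37 (SE; adjusted p = 0.0333, limma). ZNF726 stood at 84.8 and 63.1 with decitabine and at 19.6 with DMSO, a log2 fold change of 1.85 ± 0.38 (SE; adjusted p = 0.0479, limma). Decitabine lay above the single DMSO library in both. For ZNF257 that library stood well below the gene's mean over all DMSO libraries, which was 94.5. The fold change of ZNF257 at 72 h is therefore larger than it would be against that mean, which both decitabine libraries also exceeded. For ZNF726 the mean over all DMSO libraries was 17.8, slightly below its single library of 72 h. Both calls ended when only the libraries of 72 h set the spread, at adjusted p values of 0.583 for ZNF257 and 0.816 for ZNF726. Without either library of decitabine at 120 h or of decitabine or DMSO at 6 h the adjusted p was 0.0511 to 0.0693 for ZNF257 and 0.0865 to 0.116 for ZNF726. Without either DMSO 120 h library it was 0.0687 and 0.0704 for ZNF726.

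At 120 h, 18 of the 114 genes were called higher with decitabine and 1 lower, beside 9.91% and 6.00% of all genes tested. With quantile normalisation, which moved the median of all genes to -0.10 on the log2 scale against 0.07 here, the split was 14 higher and 4 lower. Among the 87 genes, 7 were higher (8.05%) and 1 lower (1.15%), shares at or below those of all genes. Their median log2 fold change was 0.09, and 51 of the 87 were above 0. The 336 higher-expressed ZNF genes had 20 higher and 17 lower, with a median of 0.07. The low-expressed genes that cleared the floor without decitabine were thus called higher about as often as genes at large, and the excess among the 114 lay with the 27 that the floor had picked.

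Among the 87, ZNF726 and ZNF43, both KRAB genes of chromosome 19, were higher with decitabine at 120 h and remained so when any 1 library was left out. ZNF726 stood at 96.9 and 101.9 with decitabine and at 9.68 and 13.01 with DMSO. Its log2 fold change was 3.04 ± 0.31 (SE; adjusted p = 0.000583, limma), with 2.84 to 3.23 and adjusted p up to 0.0113 when single libraries were left out. The decitabine libraries lay far above every DMSO library of any time, the highest of which was 24.8. ZNF43 stood at 211 and 169 with decitabine and at 60.4 and 51.7 with DMSO. Its log2 fold change was 1.74 ± 0.24 (SE; adjusted p = 0.00232, limma), with 1.58 to 1.90 and adjusted p up to 0.0328 when single libraries were left out. ZNF43 was steady without drug, at 51.7 to 60.4 over the 5 DMSO libraries, and stood at 59.0 and 55.5 with decitabine at 6 h and 128.7 and 166.8 at 72 h.

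**Figure D2:**
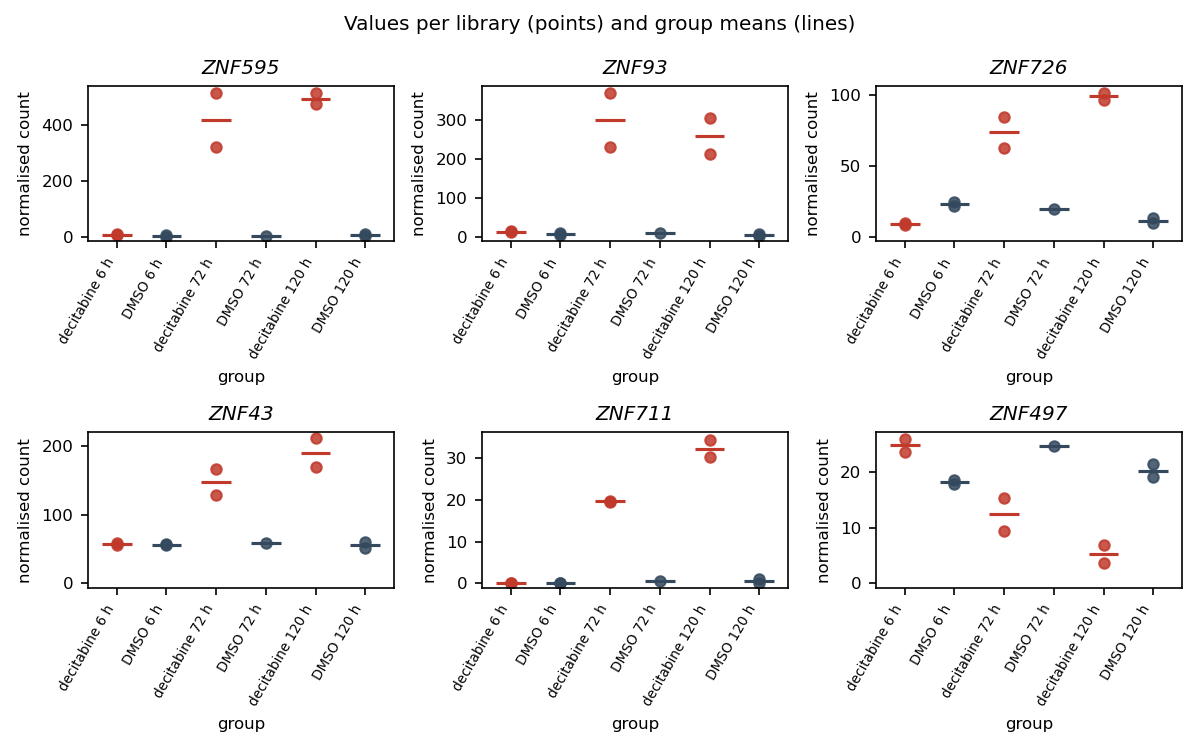
Normalised counts of 6 low-expressed ZNF genes by group in order of time, with a point for each library and a line at the group mean (decitabine red, DMSO dark). For ZNF595, ZNF93, ZNF726, ZNF43 and ZNF711 the decitabine libraries of 72 and 120 h lie above all others, as in ZNF43 at 128.7 to 211 against 51.7 to 60.4 in DMSO; for ZNF497 those of 120 h are the lowest, at 3.61 and 6.83.

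The other 5 genes of the 87 that were higher at 120 h are named because they passed the threshold, after their values were seen. ZNF846, a KRAB gene, stood at 32.5 and 43.0 with decitabine and at 11.6 and 11.7 with DMSO, a log2 fold change of 1.60 ± 0.35 (SE; adjusted p = 0.0178, limma). Its DMSO libraries of 6 h, at 26.4 and 33.6, overlapped its decitabine libraries of 120 h. ZNF525 stood at 187 and 312 with decitabine and at 52.8 and 120.5 with DMSO, a log2 fold change of 1.59 ± 0.44 (SE; adjusted p = 0.0448, limma). ZNF257 stood at 183 and 261 with decitabine and at 73.5 and 116 with DMSO, a log2 fold change of 1.23 ± 0.30 (SE; adjusted p = 0.0265, limma). The groups of 120 h did not overlap in these 3 genes, as in 66.7% of all genes, although replicates of ZNF525 differed widely. ZNF799 stood at 150.1 and 180.1 with decitabine and at 88.5 and 79.0 with DMSO, a log2 fold change of 0.97 ± 0.24 (SE; adjusted p = 0.0295, limma). ZNF879, the only one of the 7 outside chromosome 19, stood at 96.2 and 103.5 with decitabine and at 54.6 and 51.8 with DMSO, a log2 fold change of 0.90 ± 0.25 (SE; adjusted p = 0.0435, limma). At 6 h, DMSO libraries of both genes, at 99.8 and 103.5 for ZNF799 and 105.0 and 69.2 for ZNF879, stood higher than at 120 h.

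ZNF497 was the only one of the 114 genes called lower at 120 h. It stood at 3.61 and 6.83 with decitabine and at 19.2 and 21.4 with DMSO, a log2 fold change of -1.82 ± 0.40 (SE; adjusted p = 0.0182, limma). At 6 h it stood at 26.0 and 23.6 with decitabine and at 18.6 and 17.9 with DMSO, and at 72 h at 15.3 and 9.47 against 24.7. Calls of these 6 genes ended without some single libraries. The highest adjusted p with 1 library left out was 0.130 for ZNF497 (without decitabine replicate 1 or either DMSO library of 120 h) and 0.133 for ZNF846 (without any 1 of the 4 libraries of 120 h). It was 0.186 for ZNF257 and 0.258 for ZNF525, which lost the call without either decitabine 120 h library or DMSO 120 h replicate 1, and ZNF525 also without any 1 library of 6 h. For ZNF799 it was 0.188 and for ZNF879 0.210, which both lost the call without any 1 library of 120 h, and without either DMSO library of 6 h (ZNF799) or either decitabine library of 6 h (ZNF879).

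**Figure D3:**
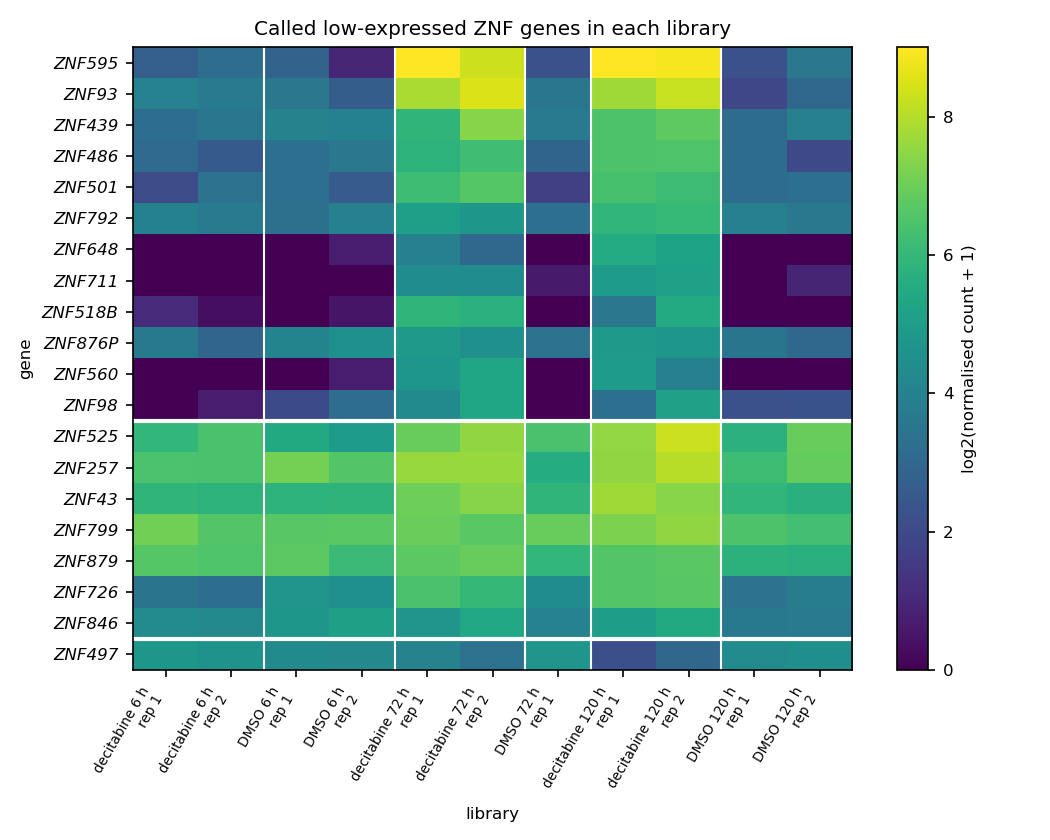
Level of the 20 low-expressed ZNF genes called at 72 or 120 h (rows) in each of the 11 libraries (columns), as log2(normalised count + 1) in colour. The upper block holds 12 genes that needed decitabine libraries to reach the floor, the middle block 7 higher genes that reached it in DMSO libraries, and the last row ZNF497; ZNF595 is brightest in the decitabine libraries of 72 and 120 h, at 320 to 514 normalised counts.

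The 27 genes that needed decitabine libraries held the widest differences. ZNF595, a KRAB gene near the end of the short arm of chromosome 4, stood at 5.63 and 8.42 with decitabine against 6.21 and 0.937 with DMSO at 6 h. At 72 h it stood at 514 and 320 with decitabine against 3.74 with DMSO, and at 120 h at 514 and 475 against 3.75 and 11.04. Its level at 120 h was 125.8 normalised counts per kilobase with decitabine, above the highest of the 114 genes in DMSO. ZNF93, which in humans binds and represses LINE-1 retroelements, stood at 14.9 and 12.01 with decitabine against 10.9 and 5.29 with DMSO at 6 h. At 72 h it stood at 230 and 369 with decitabine against 10.7 with DMSO, and at 120 h at 212 and 306 against 2.75 and 6.97. In both genes the decitabine libraries of 72 and 120 h were far above all 7 others, which lay close together.

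ZNF711, an X-linked gene whose protein binds the histone demethylase PHF8, was listed at 0 in all 4 libraries of 6 h. It stood at 19.6 and 19.8 with decitabine against 0.566 with DMSO at 72 h, and at 30.2 and 34.5 against 0 and 0.913 at 120 h. ZNF648 stood at 14.1 and 7.07 with decitabine and was listed at 0 with DMSO at 72 h, and it stood at 45.8 and 36.4 with decitabine and was listed at 0 in both DMSO libraries at 120 h. ZNF560, a KRAB gene, stood at 25.5 and 39.0 with decitabine at 72 h and at 30.2 and 14.3 at 120 h, and was listed at 0 in the DMSO libraries of both times. ZNF518B, whose protein is known to bind the methyltransferase G9a, stood at 58.4 and 53.5 with decitabine at 72 h and at 10.8 and 44.5 at 120 h, and was also listed at 0 in the DMSO libraries of both times. These 4 genes were at or near 0 without drug at every time.

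Among the rest of the 27, ZNF486 stood at 89.2 and 90.4 with decitabine against 8.13 and 2.98 with DMSO at 120 h, ZNF439 at 89.9 and 109.2 against 7.997 and 14.2, and ZNF501 at 83.5 and 72.1 against 8.04 and 8.82. ZNF792 stood at 60.3 and 64.7 against 14.1 and 11.2, and the pseudogene ZNF876P at 28.0 and 25.5 against 10.3 and 7.24. ZNF98 differed mainly at 72 h, at 18.4 and 38.6 with decitabine and 0 with DMSO, and stood at 8.74 and 34.7 against 3.65 and 3.85 at 120 h. The smallest difference among the 27 at 120 h was that of ZNF784, at a log2 fold change of 0.08, and the direction of the 27 follows in part from the floor. Of the genes higher at 72 h, most of them among the 27, 9 were also higher at 120 h, which is 90% of the 72 h list and 50% of the 120 h list. As the floor picked most of these genes through decitabine libraries, the overlap is partly built in. The overlap over all genes is not given here. ZNF98 was the gene of the 72 h list that was not also on the 120 h list.

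**Figure D4:**
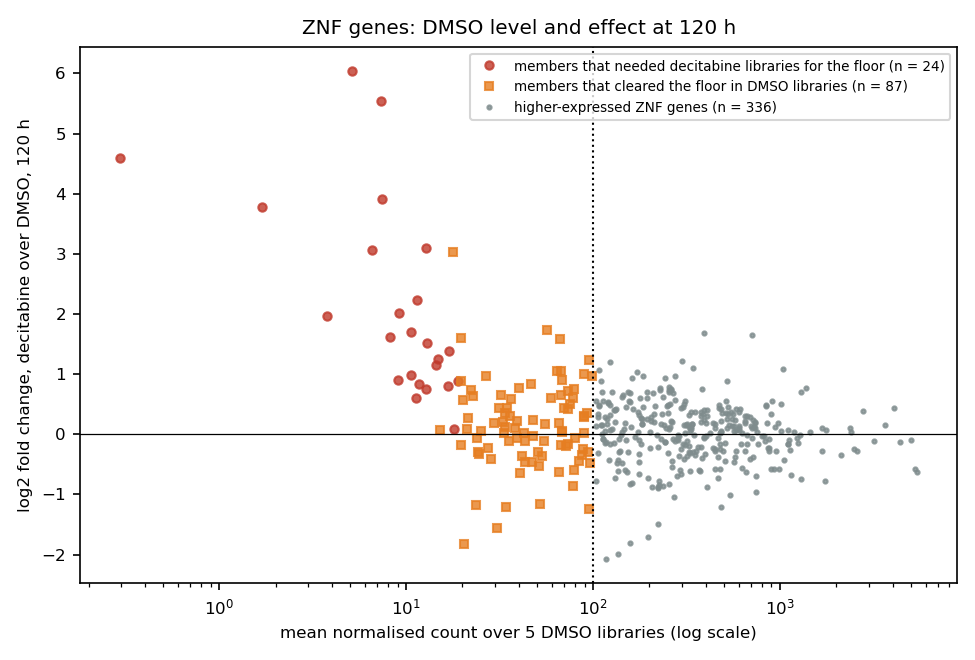
Log2 fold change of decitabine over DMSO at 120 h against the mean over the 5 DMSO libraries (log axis; the dotted line marks 100 normalised counts) for ZNF genes. The 24 genes that needed decitabine libraries for the floor (circles; ZNF648, ZNF518B and ZNF560, listed at 0 in DMSO, are left out) lie above 0, the direction that the floor favours, while the 87 others (squares) scatter around a median of 0.09 and the 336 higher-expressed genes (dots) around 0.07.

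A choice of genes that left the later libraries aside was made as a check. The 65 ZNF genes with a mean under 100 and at least 20 in both libraries of DMSO at 6 h owe nothing to the values of 72 and 120 h. Of these, 1 was called higher at 72 h, ZNF726, and 5 (7.69%) at 120 h, ZNF726, ZNF43, ZNF846, ZNF525 and ZNF879, and 0 lower. Their median log2 fold change was 0.13 at 120 h. The share called higher was below the 9.91% of all genes. As 61 of the 65 are also among the 87 and the fit is the same, this is not a separate result.

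The effect of decitabine at 120 h was set against that at 6 h in the same fit. It was larger at 120 h for 13 of the 114 genes and smaller for 0, beside 4.27% and 1.63% of all genes tested. Of these 13, 9 were among the 27 and 4 among the 87, namely ZNF726, ZNF43, ZNF846 and ZNF513, a gene linked to retinal disease. The 4 of 87 are 4.60%, close to the share of all genes. ZNF513 stood at 116 and 131 with decitabine and at 74.7 and 46.8 with DMSO at 120 h, and at 45.4 and 38.5 against 61.8 and 112.7 at 6 h. Decitabine libraries lay above DMSO at the later time and below it at the earlier one. Between the decitabine groups of 120 and 72 h, limma called 0 of the 114 genes higher and 0 lower, beside 0.124% and 0.00619% of all genes, and 13 (11.4%) had an unadjusted p under 0.05, beside 16.4% of all genes. Between DMSO at 120 h and at 6 h it called 0 of the 114 and 0 of all genes, with 10 of the 114 (8.77%) at an unadjusted p under 0.05, beside 5.36% of all genes.

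Position on chromosome 19 was examined because most of the genes lie there, and the stretch described next was chosen after values were seen. On chromosome 19, 11 of 58 genes were called higher and 1 lower at 120 h, with 47 above 0 and a median log2 fold change of 0.73. Elsewhere 7 of 56 were higher and 0 lower, with 31 above 0 and a median of 0.06. Over all genes tested, on any chromosome, 9.91% were higher and 6.00% lower at that time. These counts by chromosome include genes of the 27, 18 on chromosome 19 and 9 elsewhere. Among the 87 genes alone, 6 of 40 on chromosome 19 were higher, with a median of 0.32, against 1 of 47 elsewhere, with a median of -0.06. ZNF43, ZNF257 and ZNF726 of these 6 lie in the stretch chosen after values were seen. These are counts over genes that can share reads and sequence, and their difference was not tested.

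The stretch of chromosome 19 between ZNF101 and ZNF254 (chr19:19668796-24129961, GRCh38) holds 42 ZNF symbols, of which 35 were tested. Its 10 low-expressed genes were ZNF93, ZNF682, ZNF90, ZNF486, ZNF626, ZNF43, ZNF257, ZNF98, ZNF730 and ZNF726. Their median log2 fold change at 120 h was 1.68, and 5 were called higher, beside 9.91% of all genes tested. However, 7 of the 10 had needed decitabine libraries for the floor. The other 3, ZNF43, ZNF257 and ZNF726, had cleared it in DMSO libraries, and all 3 were called. Of the 20 higher-expressed ZNF genes in between, 0 were called by limma at 120 h, and 16 were above 0, with log2 fold changes of -0.29 to 0.98 and a median of 0.30. The 5 other tested genes had stayed under the floor of 20, with log2 fold changes between -0.36, for ZNF849P, and 2.02, for ZNF681, the one of the 5 that was called (adjusted p = 0.0188, limma). ZNF253, which ends 6238 bases before ZNF93, averaged 1038 ± 244 with decitabine and 905 ± 103 with DMSO (SD, n = 2 each), which did not pass the threshold. On chromosome 4, ZNF718 lies 36268 bases beyond ZNF595 and averaged 620 ± 31.5 with decitabine and 563 ± 21.3 with DMSO (SD, n = 2 each), again without a call. Genes with wide differences and genes without a call thus stood side by side.

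**Figure D5:**
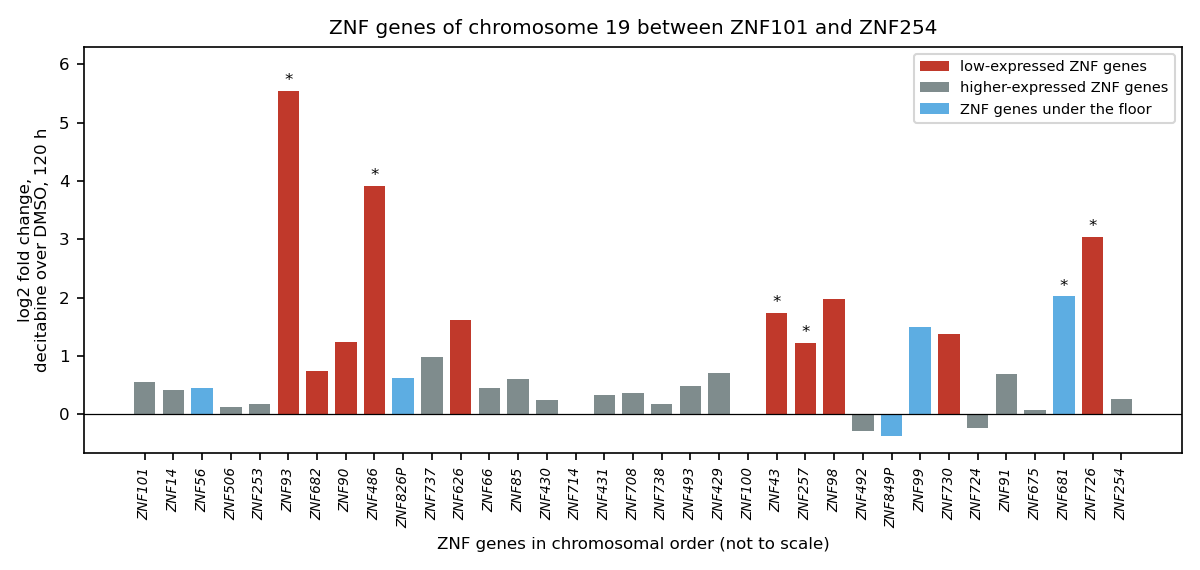
Log2 fold change of decitabine over DMSO at 120 h for the 35 tested ZNF genes of chromosome 19 between ZNF101 and ZNF254, in chromosomal order and not to scale; stars mark an adjusted p under 0.05 (limma). Red bars (10 low-expressed genes) lie above 0, blue bars (5 genes under the floor) lie between -0.36 and 2.02 with a star on ZNF681, and grey bars (20 higher-expressed genes) lie between -0.29 and 0.98, with no star.

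The promoters of the 5 low-expressed genes of the stretch called at 120 h, of ZNF90 and of ZNF595 are shown to set their letters side by side. Those of the other genes of the stretch were not aligned, among them ZNF98, called at 72 h alone, and ZNF681, called but under the floor. Each is the 250 bases before the gene's start in RefSeq (GRCh38.p14), printed in the direction of the gene, with CG pairs, the sites of DNA methylation, in capitals. The regions are chr19:19900696-19900945 for ZNF93, chr19:20166964-20167213 for ZNF486, chr19:20077750-20077999 for ZNF90, chr19:22052234-22052483 for ZNF257 and chr19:23914636-23914885 for ZNF726, all on the plus strand. They are chr19:21836183-21836432 for ZNF43, on the minus strand, and chr4:53071-53320 for ZNF595, on the plus strand. ZNF90 is included as a gene of the stretch that was not called, at 22.8 and 21.2 with decitabine and 7.47 and 10.1 with DMSO at 120 h.
ZNF93: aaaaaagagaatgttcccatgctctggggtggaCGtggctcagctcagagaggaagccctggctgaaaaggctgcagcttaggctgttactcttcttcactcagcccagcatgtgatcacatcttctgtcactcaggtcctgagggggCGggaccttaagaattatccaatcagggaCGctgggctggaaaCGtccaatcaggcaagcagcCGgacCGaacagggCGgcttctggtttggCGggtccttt
ZNF486: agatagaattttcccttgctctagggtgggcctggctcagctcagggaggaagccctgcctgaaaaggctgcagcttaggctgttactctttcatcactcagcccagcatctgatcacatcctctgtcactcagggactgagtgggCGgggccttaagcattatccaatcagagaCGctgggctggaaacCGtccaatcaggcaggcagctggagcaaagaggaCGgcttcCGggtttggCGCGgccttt
ZNF90: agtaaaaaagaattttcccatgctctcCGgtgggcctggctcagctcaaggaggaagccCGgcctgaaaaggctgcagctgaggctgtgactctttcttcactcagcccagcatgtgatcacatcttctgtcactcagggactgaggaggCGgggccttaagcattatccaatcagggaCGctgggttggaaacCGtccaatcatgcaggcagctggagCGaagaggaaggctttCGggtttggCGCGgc
ZNF43: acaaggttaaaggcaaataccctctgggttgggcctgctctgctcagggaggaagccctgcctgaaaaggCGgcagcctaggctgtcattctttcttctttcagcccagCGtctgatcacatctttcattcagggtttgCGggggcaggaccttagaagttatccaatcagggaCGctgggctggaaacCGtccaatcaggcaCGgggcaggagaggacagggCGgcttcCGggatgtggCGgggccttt
ZNF257: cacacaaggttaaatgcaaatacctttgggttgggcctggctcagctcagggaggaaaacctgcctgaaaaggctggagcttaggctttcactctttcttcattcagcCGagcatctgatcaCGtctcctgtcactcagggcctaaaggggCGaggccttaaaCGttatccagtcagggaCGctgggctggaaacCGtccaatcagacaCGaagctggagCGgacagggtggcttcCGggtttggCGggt
ZNF726: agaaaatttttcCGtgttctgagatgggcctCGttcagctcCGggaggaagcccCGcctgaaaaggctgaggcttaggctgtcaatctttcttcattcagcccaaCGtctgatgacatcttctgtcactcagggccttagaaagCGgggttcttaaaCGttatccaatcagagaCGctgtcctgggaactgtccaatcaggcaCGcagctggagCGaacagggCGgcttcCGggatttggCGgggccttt
ZNF595: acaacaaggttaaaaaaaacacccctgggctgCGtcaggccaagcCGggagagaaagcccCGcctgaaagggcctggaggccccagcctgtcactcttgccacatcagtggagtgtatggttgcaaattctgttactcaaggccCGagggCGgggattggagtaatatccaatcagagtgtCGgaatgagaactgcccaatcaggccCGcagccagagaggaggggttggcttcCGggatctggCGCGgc

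Aligned in pairs, the 6 chromosome 19 promoters were identical at 80.2 to 91.9% of aligned bases. The closest pair was ZNF486 and ZNF90, of which ZNF486 was called and ZNF90 was not. ZNF595 of chromosome 4 was identical to them at 69.3 to 72.5%. The printed promoters held 7 to 13 CG pairs each. Of the 114 genes, 87 had a RefSeq promoter (not the same set as the 87 that cleared the floor), with a median of 16 CG pairs, against 11 over all 35116 promoters of the table. The 17 that were called higher at 72 or 120 h had a median of 13, and the 70 others 18. With the printed promoters left out the order turned round, with a median of 20 for 11 higher genes and 18 for 69 others. The letters CCAATCAG, searched on both strands and picked after these sequences were read, were found in all 7 printed promoters. With the printed promoters left out, they were found in 1 of 11 promoters of higher genes, in 14 of 69 promoters of the other low-expressed ZNF genes, and in 3.81% of all promoters of the table. Promoters of ZNF genes that arose by duplication can share sequence with the printed ones. The share among the other low-expressed ZNF genes is therefore not independent of the sequences from which the letters were picked. A match is not evidence of a bound factor, and DNA methylation was not measured here.

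Other genes of the pathway were followed as lists. Of 11 ZNF genes known as repressors of retroelements, 2 were higher with decitabine at 72 and at 120 h and 0 lower, ZNF93 and ZNF534, with a median log2 fold change of 0.22 at 120 h against 0.07 over all genes, of which 9.91% were higher and 6.00% lower at 120 h and 1.88% higher at 72 h. ZNF93 is among the genes that needed decitabine libraries for the floor, so its call is not a separate result. ZNF534, which is known to bind HERVH elements and fell short of the floor, averaged 18.9 ± 0.668 with decitabine and 0.489 ± 0.691 with DMSO at 120 h (SD, n = 2 each). Of 10 tested ZNF genes known for promoter methylation in tumours, 0 were higher and 1 was lower, ZNF667, which is not one of the 114. Low-expressed genes on that list did not pass the threshold at 120 h. ZNF582 stood at 77.1 and 63.2 with decitabine and at 28.3 and 53.3 with DMSO, and ZNF132 at 76.9 and 79.4 against 42.7 and 47.9. ZNF154 stood at 14.4 and 22.3 against 7.36 and 12.6, and ZNF177 at 16.8 and 21.9 against 21.0 and 28.6. The groups overlapped in ZNF177, whose windows were 86.8% shared with other genes, and did not in the other 3, as in 66.7% of all genes.

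Of 3 tested ZNF genes of blood and immune cells, 0 were called at 120 h. ZNF385A, which binds p53 and modulates its choice of targets, stood at 25.9 and 30.9 with decitabine and at 72.4 and 57.4 with DMSO (log2 fold change -1.16, adjusted p = 0.111, limma). ZNF467 stood at 45.6 and 35.0 with decitabine and at 15.95 and 19.2 with DMSO. Of 5 imprinting and germ line ZNF genes, and of a list of ZNF274, ZNF75D, ZNF10 and ZNF350, 0 were called at 120 h. Over all genes tested, 9.91% were higher and 6.00% lower at that time, so few calls would be looked for in lists this short. ZNF215, an imprinted gene, stood at 53.2 and 61.0 with decitabine and at 53.0 and 120.0 with DMSO, and ZNF165, a cancer-testis antigen, at 53.0 and 44.9 against 55.1 and 50.7.

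Of 18 tested genes of the machinery that KRAB proteins recruit, 0 were higher and 3 lower at 120 h, beside 9.91% and 6.00% of all genes, with a median log2 fold change of -0.32. TRIM28, the corepressor itself, averaged 1244 with decitabine and 2081 with DMSO (log2 fold change -0.74, adjusted p = 0.0387, limma). HDAC2, a histone deacetylase, averaged 2254 with decitabine and 3619 with DMSO (-0.68, adjusted p = 0.0444, limma), and UHRF1, which brings DNMT1 to newly copied DNA, 1750 with decitabine and 2721 with DMSO (-0.64, adjusted p = 0.0283, limma). SETDB1, the histone methyltransferase of the complex, averaged 1265 and 1252. Of 79 tested genes of other C2H2 families, 3 were higher and 3 lower, with a median of 0.07, beside the same shares of all genes.

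Some markers of mature cells also differed between decitabine and DMSO at 120 h, when 9.91% of all genes tested were higher and 6.00% lower. All 6 eosinophil markers were higher with decitabine at 120 h, and their sum was 121675 to 132093 in those libraries and 72881 to 84725 with decitabine at 72 h, against 14453 to 22704 over the DMSO libraries. PRG2 made up most of this sum, averaging 113252 with decitabine and 13955 with DMSO at 120 h. Of 6 neutrophil markers 2 were higher and 1 lower, MMP8, and of 4 tested monocyte markers 3 were higher. Of 7 promyelocyte markers 1 was lower, MYC, and their sum was 122414 to 133636 with decitabine at 120 h against 133238 to 207727 over the DMSO libraries. Of 4 lymphoid markers, 1 was tested and was higher, CD3D, and the others averaged at most 3.93 with decitabine at 120 h. The erythroid markers HBB, HBA1 and ALAS2 were listed at 0 in every library, and 0 of the epithelial and stromal markers was called. The part of these cell types in the values of the ZNF genes was not tested.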

How the data were processed

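Per the labels' protocols, ribosomal RNA was removed from HL-60 RNA (RiboZero Gold), stranded libraries were made (ScriptSeq v2) and single-end reads of 50 bases were taken on an Illumina sequencer. The submitters' processing notes name, without saying what each was used for, DESeq2, limma, featureCounts, STAR, Salmon 1.2.1 and the genome hg38. The deposited values are a normalised signal with the properties of estimated counts divided by a factor per library, called normalised counts here. In the low range 59.4 to 65.3% of values were whole multiples of a library's step within 0.01, so no count model was run. The heading names 12 libraries over 11 columns of values, per the file headers, and was read as starting at the symbol, so DMSO 72 h replicate 2 has no values. Every result rests on this reading.

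Values were transformed to log2(value + 1), which understates the change of low genes. The 16152 genes that reached 10 in 2 or more libraries were tested. A linear model of 6 group means was fitted with limma 3.58.1 in R 4.3.3 (lmFit, eBayes with trend; 5 residual degrees of freedom, 8.42 in all), which was tested on simulated data. The fit was planned for 12 libraries and run on 11, and the lone DMSO 72 h library took its spread from the other groups. Tests were two-sided, adjustment was by Benjamini and Hochberg over every gene tested, and the threshold for a call was an adjusted p of 0.05. No fold is given against a group listed at 0. Values in the text are normalised counts per library. The genes and the 15 gene lists were chosen with earlier results of these data known, and support nothing by their direction. Genes named by rule were the called genes with non-overlapping groups (at most 12 higher and 8 lower at 120 h, 8 and 4 at 72 h), the 3 with the smallest p at 6 h, and at most 4 or 5 each way for the other contrasts. Positions and shared windows come from GENCODE 29 (GRCh38), in which all 114 genes matched by identifier, and promoters from RefSeq, cut to the 250 bases before the start. Promoters were aligned with Biopython 1.88, and plots drawn with matplotlib 3.10.9.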

Additional observations from a re-analysis of the deposited data

Results flagged for a closer look

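For 4 of the 87 genes that cleared the floor in DMSO libraries, the effect of decitabine differed between 120 h and 6 h by a test of that difference over all genes (limma, adjusted). All 4 effects were larger at 120 h, which is 4.6% of the 87, beside 4.27% of all genes tested. The number of calls therefore sets these genes apart from genes at large in no way. The log2 difference of effects was 4.28 ± 0.43 for ZNF726 (SE; adjusted p = 0.00201, limma). At 6 h ZNF726 stood at 10.03 and 8.56 with decitabine and 24.8 and 21.8 with DMSO. The difference was 1.72 ± 0.33 for ZNF43 (adjusted p = 0.0251, limma), 2.24 ± 0.50 for ZNF846 (adjusted p = 0.0380, limma) and 2.03 ± 0.49 for ZNF513 (adjusted p = 0.0497, limma). Only ZNF726 kept the call whichever library was left out, with an adjusted p of at most 0.0227. ZNF43, ZNF846 and ZNF513 each lost it without any 1 of the 8 libraries of 6 and 120 h, with adjusted p values up to 0.121, 0.153 and 0.170. Groups of 1 or 2 libraries do not allow a test for a single library that stands apart.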

How the results depend on the processing

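The numbers of genes called moved with the processing at 72 h, 120 h and for the difference of effects, and the direction of the named genes did not. Over the named genes and all alternatives run for them, 614 values kept direction and side of the threshold, 158 kept direction and missed it, and 0 turned round. Most of these genes were named because they were called, and the alternatives refit the same libraries. A turn of direction was therefore unlikely from the start, and its absence is no separate support. At 72 h, 10 of 114 genes were called; this was 6 with no filter, 0 with sample weights (19 at an unadjusted p under 0.05), 1 with the spread of that time alone, 20 against all 5 DMSO libraries, 1 among the 65 genes chosen from DMSO 6 h libraries and 2 among the 87. At 120 h, 19 were called; this was 34 with sample weights, 5 among the 65 and 8 among the 87. For the difference of effects, 13 were called; this was 7 with no filter, 25 with sample weights, 4 among the 65 and 4 among the 87. The choice of the 87 was added after seeing the data. Leaving out single libraries gave 4 to 26 at 72 h, 11 to 30 at 120 h, 2 to 24 for the difference of effects, 0 to 17 between decitabine at 120 and 72 h, and 0 for the other contrasts. Counts rose without decitabine 72 h replicate 1 (26, 30, 23 and 17 in that order), and without replicate 2 (30 at 120 h, 24 for the difference). At 72 h, leaving out 1 library of decitabine 120 h gave 4 (replicate 1) or 5 (replicate 2), and any 1 library of 6 h gave 5. At 120 h it was 11 without decitabine 120 h replicate 1 and 12 without DMSO 120 h replicate 1. For the difference of effects it was 2 without either decitabine library of 120 h, 5 and 7 without DMSO 120 h replicates 1 and 2, 4 and 5 without decitabine 6 h replicates 1 and 2, and 5 and 6 without DMSO 6 h replicates 1 and 2. Leaving out the DMSO 72 h library gives no value at 72 h. Some of the fits without 1 library also held more lower calls than the main fit. Such calls appeared at 72 h and for the difference of effects, where the main fit had only higher ones. They also appeared between decitabine at 120 and 72 h. The scarcity of lower calls thus depended on the libraries too. The cause of these changes was not tested. With the replicate block the counts were 7 at 72 h, 19 at 120 h, 11 for the difference and 0 otherwise; correlations of same-numbered deviations of -0.08 to 0.12 gave no sign that the numbers pair the samples. Depth limits genes near 1 count, worth up to 0.961 normalised counts, and most of all ZNF711, ZNF648, ZNF560 and ZNF518B in DMSO.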
